A study of Mus musculus with 31 samples.

Results

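The genes described here encode the subunits, activators and assembly factors of the proteasome. They were chosen by a rule on names, with earlier results of these data known. The rule took the protein-coding mouse genes whose symbol is Psm followed by 1 of the letters a to g and a number. This gave 51 of the 20704 gene identifiers in the table of ribosome-protected fragments (RPFs) and of the 24593 in the table of total RNA. The list holds 7 genes of the 20S alpha ring, 7 of the 20S beta ring, 2 tissue-specific 20S subunits, 3 immunoproteasome subunits, 6 ATPases and 11 non-ATPases of the 19S cap, 6 activators and inhibitors and 7 assembly factors. The remaining 2, Psmc3ip and Psme3ip1, meet the rule by name and encode no proteasome subunit. After a filter on low counts, 46 of the 51 were tested in RPF and 48 in total RNA.

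The proteasome is the cell's main machine for degrading ubiquitin-tagged proteins. Its 20S core is a barrel of stacked rings, with alpha subunits forming the gated outer rings and beta subunits the inner rings, of which Psmb6, Psmb7 and Psmb5 carry the caspase-like, trypsin-like and chymotrypsin-like active sites. The 19S cap binds ubiquitin, removes it and uses a ring of ATPases (Psmc) to unfold substrates and thread them into the core. In cells exposed to interferon, Psmb9, Psmb10 and Psmb8 replace the 3 standard active subunits to form the immunoproteasome. Bortezomib binds chiefly to the active site of Psmb5. Cells with a blocked proteasome are known to raise transcription of subunit genes through NRF1 (Nfe2l1), a membrane-bound factor that needs Vcp, Ngly1 and Ddi2 to be released.

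The cells were mouse skin squamous cell carcinoma (SCC) keratinocytes that carry oncogenic HRasG12V and lack the TGF-beta receptor gene Tgfbr2 (TgfbrII fl/fl in the labels). In all of them the endogenous Eif2s1 gene, which encodes the translation factor eIF2 alpha, had been ablated with CRISPR-Cas9 and replaced by a myc-tagged lentiviral transgene under the PGK promoter. The S51 transgene keeps the serine that stress kinases phosphorylate to start the integrated stress response (ISR), and the S51A transgene has alanine there, which leaves the cells without an ISR. Cells of both genotypes received DMSO vehicle or 100 nM bortezomib for 4.5 h. There were 4 libraries of each kind in every group, except for RPF of S51 vehicle cells, which had 3. The lines were grown from single-cell clones and the clone behind each library is not given in the sources used here, so a difference between S51 and S51A cannot be told apart from a difference between clones. The replicates are called technical in one place of the study and independent in another, so that p-values measure only the spread between these libraries, which may be technical.

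RPF libraries held 1038826 to 4902237 counted reads and total RNA libraries 18758668 to 22994713. A note on the series states that the titles of the S51 bortezomib and S51A vehicle libraries had been exchanged, and the corrected titles were used. The 8 keratinocyte and SCC markers were all detected and summed to 23895 to 34698 CPM, or counts relative to the scaled library size, in RPF, against 0.483 to 9.54 for 4 fibroblast markers, 7.28 to 16.9 for 4 immune markers and 0.967 to 8.61 for 3 endothelial markers. Total RNA of Eif2s1 averaged 310 ± 7.28 (SD, n = 4) CPM with vehicle and 287 ± 3.81 CPM with bortezomib in S51 and 295 ± 6.71 and 291 ± 8.40 CPM in S51A, and a count per gene does not read which allele was made. RPF of Eif2s1 was higher in S51A than in S51 vehicle cells by 0.73 on the log2 scale (SE 0.17, adjusted p = 0.00234). With bortezomib that difference was 0.29 and not called. RPF of Eif2s1 relative to its total RNA was also called higher in S51A vehicle, by 0.79, in a comparison that called 10 of 9424 genes. One library, RPF S51 vehicle replicate 2, stood apart by its spread over all genes. Its difference to the other replicates had an interquartile range of 0.815, against 0.215 to 0.527 in the other RPF libraries. It was below both other replicates in 22 of the 31 standard 20S and 19S subunits and above both in 8. By that count of subunits other libraries stood out as well. RPF S51 vehicle replicate 3 was above both others in 21. In total RNA, S51A bortezomib replicate 2 was above all others of its group in 26, with a median difference of 0.092. S51 bortezomib replicate 1 was below all others in 24 (-0.061), and S51 vehicle replicate 1 in 21 (-0.057). The group result and some of the genes below are also given without RPF S51 vehicle replicate 2. The remaining RPF results that use S51 vehicle include it and may depend on it.

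Bortezomib raised RPF and total RNA of the standard proteasome subunits as a group, relative to the bulk of genes, in both genotypes. Of the 31 subunits of the 20S core and 19S cap, 30 rose in RPF in S51 cells and 29 in S51A cells, and none fell. All 31 rose in total RNA in S51 cells and all 31 in S51A cells. The median change was 0.68 on the log2 scale (1.60-fold) in S51 and 0.59 (1.51-fold) in S51A for RPF, and 0.57 (1.49-fold) and 0.62 (1.54-fold) for total RNA, while the medians of all genes tested lay between -0.01 and 8.72e-06. The plot of responses by gene shows the classes side by side. Calls were made with edgeR's quasi-likelihood test at an adjusted p below 0.05 over all genes. TMM scaling sets the bulk of genes to no change, so every change is relative to other genes. A change common to all genes, in cell number or in RNA per cell cannot be seen. The paper reports that bortezomib lowered protein synthesis in these cells, so a relative rise in RPF need not be a rise in subunits made. Without RPF S51 vehicle replicate 2, the RPF counts were 30 of 31 in S51 and 31 of 31 in S51A, and the S51 median was 0.62 (1.53-fold).

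**Figure D1:**
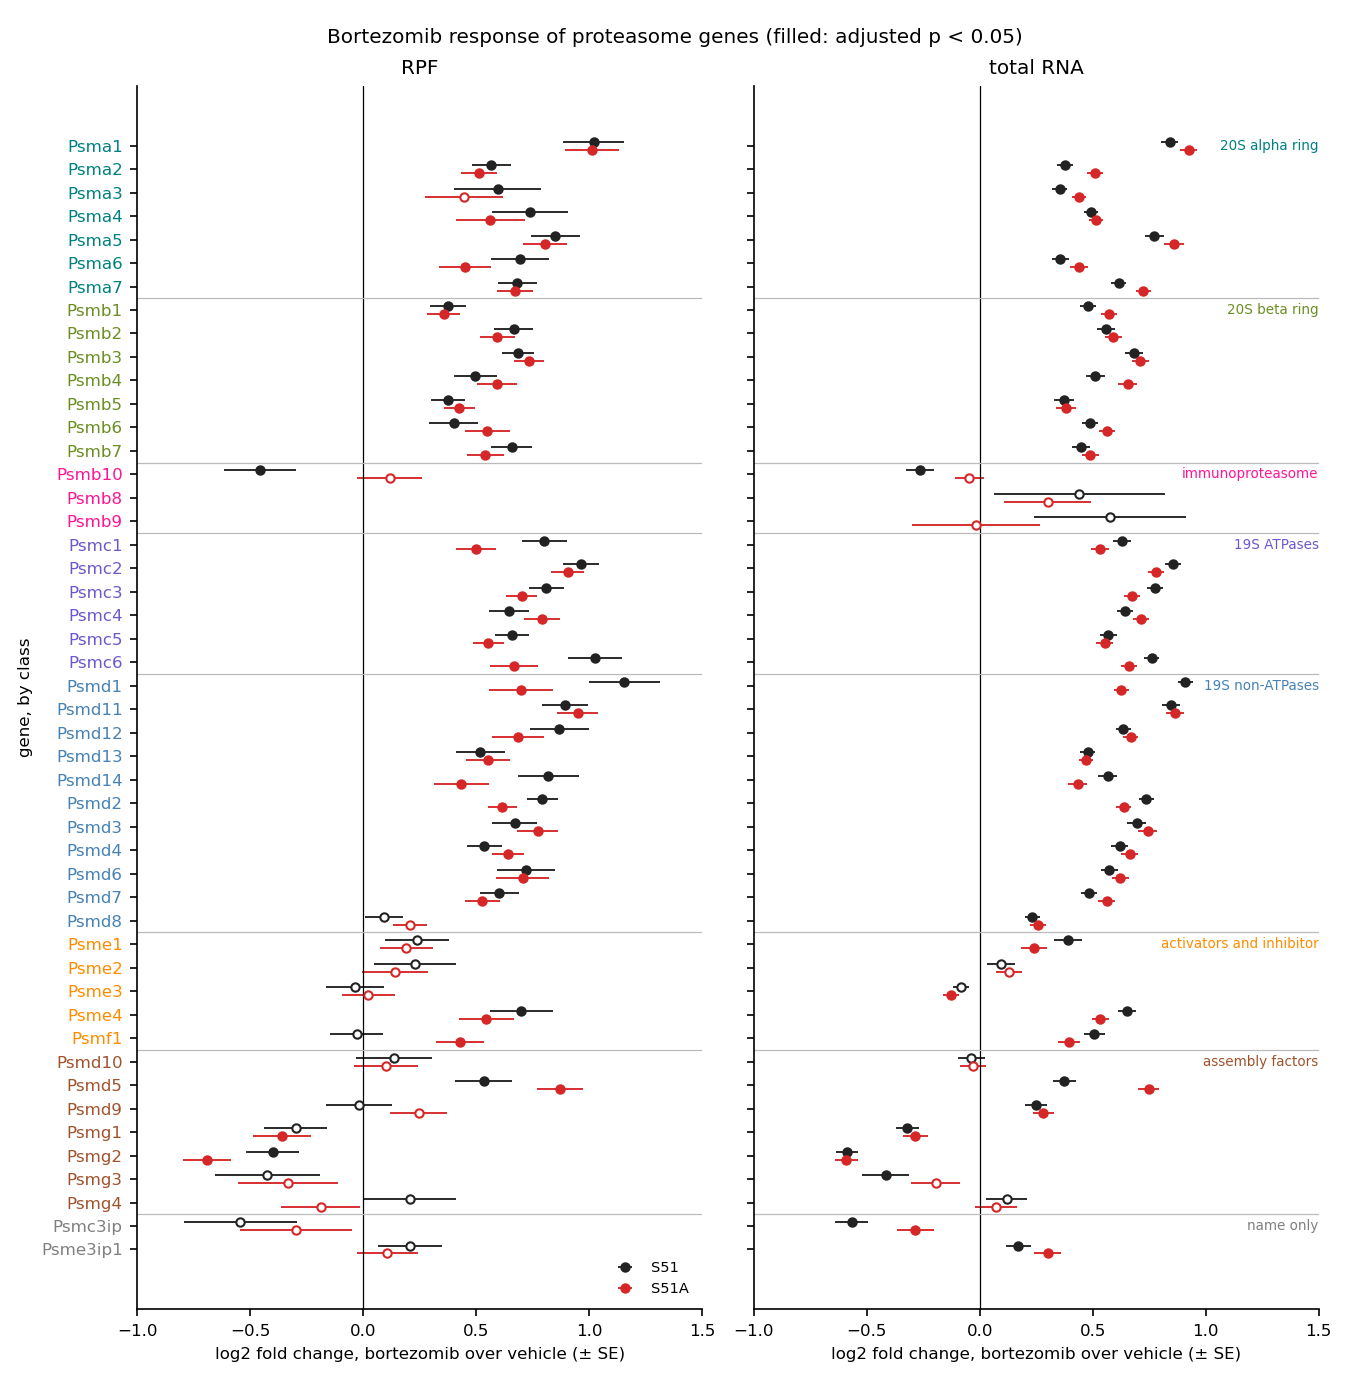
Log2 fold change of bortezomib over vehicle for each member that was tested, in RPF and in total RNA, by class. Black is S51 and red S51A, bars are ± 1 SE from edgeR, and filled points passed an adjusted p of 0.05; the 20S and 19S subunits lie above 0, with a median RPF change of 0.68 in S51 and 0.59 in S51A, and the assembly factors lie on both sides of it.

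Translational efficiency (TE) is used below for the change in RPF beyond the change in total RNA. Of the 46 members tested in RPF, 32 rose and 2 fell in S51 cells, where 14.8% of all genes tested rose and 16% fell. In S51A cells 32 rose and 2 fell in RPF, against 9.25% and 11.4% of all genes. Of the 48 tested in total RNA, 37 rose and 5 fell in S51, against 29.7% and 30.2%. In S51A 37 rose and 4 fell, against 27.5% and 28.9%. A rise past 1.5-fold was less common: 24 members in S51 and 18 in S51A for RPF, with 7.38% and 4.19% of all genes, and 16 and 18 for total RNA, with 5.7% and 4.54%. Together the 31 standard subunits took 0.870% ± 0.067 (SD, n = 3) of all RPF counts in S51 vehicle and 1.41% ± 0.034 (n = 4) in S51 bortezomib, and 0.879% ± 0.021 and 1.33% ± 0.017 in S51A. Their share of total RNA counts went from 0.608% ± 0.011 to 0.831% ± 0.014 in S51 and from 0.586% ± 0.006 to 0.823% ± 0.018 in S51A. These are shares of raw counts without TMM factors, so RPF and total RNA shares cannot be set against each other as TE. Without those factors the median change of all genes in total RNA was -0.16 in S51 and -0.13 in S51A.

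All 7 alpha ring genes rose in RPF in S51 and 6 of 7 in S51A, and all 7 rose in total RNA in both. The largest change of the ring was that of Psma1 (gene 26440, chr7:114264550-114276116). Its RPF level was 324, 188 and 333 CPM in the 3 S51 vehicle libraries and 550, 611, 590 and 547 CPM in the 4 S51 bortezomib libraries. In S51A cells it was 280, 306, 290 and 323 CPM with vehicle and 632, 648, 559 and 581 CPM with bortezomib. Every bortezomib library was above every vehicle library, although S51 vehicle replicate 2 was far below its group. The RPF change was 1.02 ± 0.13 (SE) in S51 and 1.01 ± 0.12 in S51A on the log2 scale, and 0.81 in S51 without that replicate. Total RNA of Psma1 lay between 198 and 216 CPM in S51 vehicle and between 353 and 388 CPM in S51 bortezomib, and between 189 and 197 CPM and between 349 and 381 CPM in S51A, with a change of 0.84 ± 0.04 and 0.93 ± 0.04. Psma5 changed by 0.85 ± 0.11 in S51 and 0.80 ± 0.10 in S51A in RPF and by 0.77 and 0.86 in total RNA. Psma3 and Psma6 had the smallest total RNA changes of the ring, 0.35 and 0.36 in S51 and 0.44 each in S51A. Psma3 was the alpha gene that missed the threshold in RPF of S51A cells: its levels were 254, 263, 247 and 290 CPM with vehicle and 431, 342, 351 and 311 CPM with bortezomib, which do not overlap, with a change of 0.45 ± 0.17 and an adjusted p of 0.0737. Its S51 call, 0.60 ± 0.19 with an adjusted p of 0.0231, was lost without S51 bortezomib replicate 3 (adjusted p = 0.0598).

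All 7 beta ring genes rose in every one of these comparisons. Psmb5 (gene 19173, chr14:54614120-54617995), the subunit to which bortezomib binds, was the beta gene with the smallest total RNA change and was measured with little spread. Its RPF level was 223, 226 and 224 CPM in S51 vehicle and 293, 290, 288 and 291 CPM in S51 bortezomib, and it was 232, 232, 225 and 235 CPM in S51A vehicle and 316, 309, 297 and 321 CPM in S51A bortezomib. No bortezomib library overlapped a vehicle library of the same genotype. The RPF change was 0.37 ± 0.07 in S51 (adjusted p = 0.000665) and 0.43 ± 0.07 in S51A, and the total RNA change 0.37 ± 0.04 and 0.38 ± 0.04. The other active subunits, Psmb6 and Psmb7, rose by 0.40 ± 0.11 and 0.66 ± 0.09 in RPF in S51, and by 0.55 ± 0.10 and 0.54 ± 0.08 in S51A. The RPF call of Psmb6 in S51 was lost with only the 2 groups compared (adjusted p = 0.0782) and without S51 vehicle replicate 3 (0.28, adjusted p = 0.0602). Psmb3, which has no active site, changed most in total RNA, by 0.68 ± 0.04 in S51 and 0.71 ± 0.04 in S51A, with RPF changes of 0.68 ± 0.07 and 0.73 ± 0.06. Psmb2 and Psmb4 lay between, with total RNA changes of 0.56 and 0.51 in S51 and 0.59 and 0.65 in S51A.

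The 6 ATPases of the 19S cap rose in all 4 comparisons with vehicle, with a median RPF change of 0.81 in S51 and 0.68 in S51A. Psmc2 was the highest of them in total RNA, at 0.86 ± 0.04 and 0.78 ± 0.04. Its RPF level was 214, 218 and 245 CPM in S51 vehicle and 448, 439, 430 and 445 CPM in S51 bortezomib, and it was 198, 216, 222 and 211 CPM and then 384, 384, 404 and 416 CPM in S51A. Bortezomib and vehicle libraries did not overlap, and the change was 0.96 ± 0.08 and 0.91 ± 0.07. Psmc3 changed by 0.81 and 0.70 in RPF and by 0.78 and 0.67 in total RNA, and Psmc4 by 0.64 and 0.79 in RPF and by 0.64 and 0.71 in total RNA. Psmc1 and Psmc5 had the smallest total RNA changes of the ATPases, 0.53 and 0.55 in S51A.

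Of the 11 non-ATPases, 10 rose in RPF in each genotype and 11 in total RNA. The one that did not pass in RPF was Psmd8 (gene 57296, chr7:29174187-29180673), a lid subunit. Its RPF level was 282, 273 and 287 CPM in S51 vehicle and 334, 291, 287 and 284 CPM in S51 bortezomib, which overlap. In S51A it was 315, 323, 296 and 287 CPM with vehicle and 331, 364, 364 and 351 CPM with bortezomib, which do not. The RPF change was 0.09 ± 0.08 in S51 (adjusted p = 0.441) and 0.21 ± 0.08 in S51A (adjusted p = 0.0554), and the total RNA change, 0.23 ± 0.03 and 0.26 ± 0.03, passed in both. Psmd1 (gene 70247, chr1:86064619-86139295), the large scaffold subunit of the cap, had an RPF change of 1.16 ± 0.16 in S51, with 299, 162 and 327 CPM in vehicle and 518, 562, 659 and 616 CPM in bortezomib. Without replicate 2, the low vehicle library, it was 0.92 ± 0.09, about that of Psmc2 (0.94). In S51A cells Psmd1 was at 323, 312, 335 and 366 CPM with vehicle and 633, 509, 521 and 506 CPM with bortezomib, a change of 0.70 ± 0.14. Psmd11, which has been tied to proteasome assembly, rose by 0.89 ± 0.10 and 0.95 ± 0.09 in RPF, and Psmd3 by 0.67 and 0.77. Psmd14, the subunit that cuts ubiquitin chains off substrates, rose by 0.82 ± 0.14 and 0.43 ± 0.12, the latter at an adjusted p of 0.056 without S51A bortezomib replicate 1, and Psmd13 by 0.52 and 0.55.

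**Figure D2:**
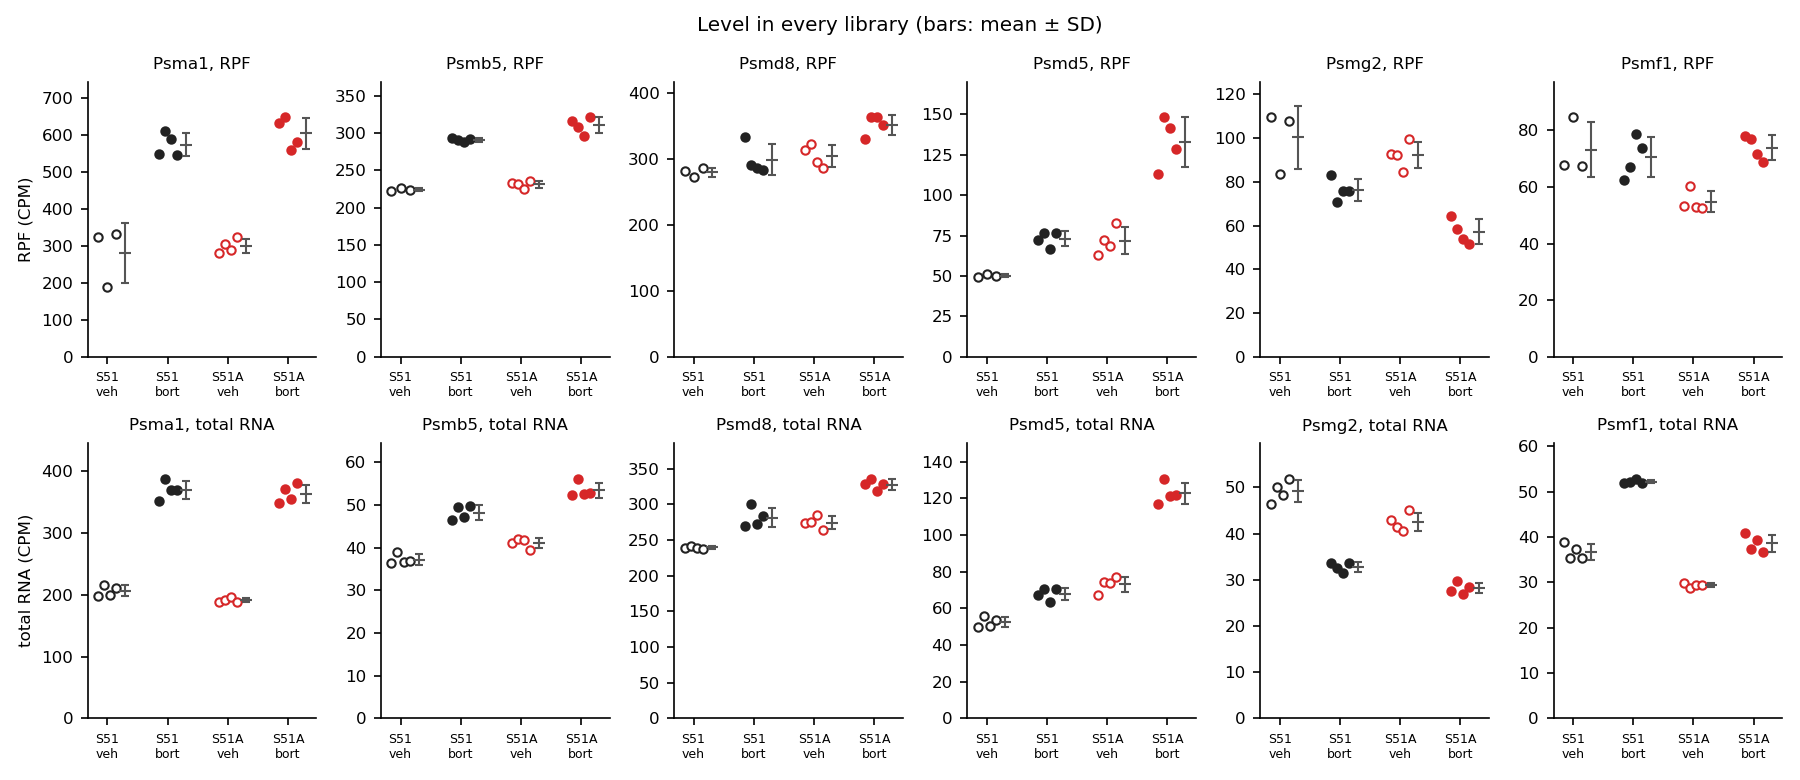
CPM in every library for Psma1, Psmb5, Psmd8, Psmd5, Psmg2 and Psmf1, RPF in the upper and total RNA in the lower panels, by group. Points are libraries and bars the mean ± SD (n = 3 for RPF S51 vehicle, otherwise 4); Psmg2 is lower with bortezomib in both panels, and RPF of Psmf1 in S51 overlaps between vehicle and bortezomib.

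Stretches upstream of the transcription start are printed here because the subunits moved together and because the antioxidant response element, the motif bound by NRF1 and NRF2, is known from proteasome promoters. A RefSeq promoter entry (build GRCm38.p6, 250 bases before the start) was found for 43 of the 51 genes, giving 47 entries. The letters TGACNNNGC were searched on both strands. They occurred in 10.6% of the members' entries (5 of 47), in 14.8% of those of 20S and 19S subunits (4 of 27) and in 10.2% of all 32851 entries. The 5 genes were Psmb5, Psmb6, Psmc6, Psmd12 and the assembly factor Psmd9, and capitals mark the match. In Psmb6 the matched letters were TGACGGAGC. Sequences run 5′ to 3′ on the strand of the gene, and in Psmc6 and Psmd12 the match was on the opposite strand.
Psmb5 (chr14:54617996-54618245, minus strand): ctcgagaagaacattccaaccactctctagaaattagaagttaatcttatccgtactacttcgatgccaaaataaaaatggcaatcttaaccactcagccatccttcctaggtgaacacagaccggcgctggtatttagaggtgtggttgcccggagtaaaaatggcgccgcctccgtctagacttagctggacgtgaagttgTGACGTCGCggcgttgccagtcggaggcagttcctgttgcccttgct
Psmc6 (chr14:45329574-45329823, plus strand): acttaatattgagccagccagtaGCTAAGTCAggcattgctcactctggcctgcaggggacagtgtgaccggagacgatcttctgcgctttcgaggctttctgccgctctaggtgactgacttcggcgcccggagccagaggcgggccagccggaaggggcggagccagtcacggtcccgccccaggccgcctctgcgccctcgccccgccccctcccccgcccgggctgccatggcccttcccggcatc
Psmd12 (chr11:107479278-107479527, plus strand): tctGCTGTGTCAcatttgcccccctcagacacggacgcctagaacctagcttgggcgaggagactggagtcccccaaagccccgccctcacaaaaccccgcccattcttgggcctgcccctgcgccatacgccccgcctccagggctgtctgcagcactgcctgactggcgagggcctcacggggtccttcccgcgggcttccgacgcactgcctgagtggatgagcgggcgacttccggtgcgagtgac
Psmd9 (chr5:123227940-123228189, plus strand): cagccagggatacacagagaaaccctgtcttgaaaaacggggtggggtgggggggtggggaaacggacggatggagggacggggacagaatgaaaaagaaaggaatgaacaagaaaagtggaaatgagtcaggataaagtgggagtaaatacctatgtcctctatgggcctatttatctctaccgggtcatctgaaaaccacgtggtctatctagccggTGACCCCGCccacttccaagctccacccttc

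Among the genes shown, total RNA in S51 cells rose by 0.37 for Psmb5, by 0.25 for Psmd9 and by 0.76 for Psmc6. Psmd12 rose as well, like every standard subunit. Psmc6 and Psmd12 are named here for their match, after their values were seen. TGACNNNGC, at 10.6% and 10.2%, and the other letters searched were each found about as often in the members as elsewhere. The CCAAT box was in 34.0% of the members' entries and 33.8% of all entries. The heat shock element pair GAANNTTC was in 6.38% and 6.69%, and TGATGNAAN, read by ATF4 with C/EBP factors, in 2.13% and 3.44%. A match is a stretch of letters and not a site shown to be bound, and no match says nothing of sequence outside these windows.

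The RPF and total RNA changes of the standard subunits were of similar size, as the plot of RPF against total RNA response shows. TE was tested in 1 model over all 31 libraries. None of the 31 subunits was called in TE in any comparison. Their median TE change with bortezomib was 0.09 in S51, from -0.15 for Psmd8 to 0.33 for Psma6 (SE 0.13, adjusted p = 0.0974), and 0.01 in S51A. Over all members, 1 was called in TE in S51 (Psmf1, lower), where 9.65% of all genes were called in either direction, and 0 in S51A, where 1.35% were. At an unadjusted p below 0.05, 1 member passed in S51A, and DESeq2 called 1. Across the 46 members tested, RPF and total RNA changes had r = 0.929 in S51 and r = 0.973 in S51A, given as a description of points that share their libraries, where all 9424 genes had 0.745 and 0.864. The TE count in S51 rested on RPF S51 vehicle replicate 3, without which 7 subunits (Psma2, Psma4, Psma6, Psmb7, Psmc6, Psmd12 and Psmd14) were called higher in TE beside Psmf1 lower. Scaling by library size and no TMM factor, which moved the TE median of all genes in S51 by 0.15, gave 13 members higher and 1 lower.

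**Figure D3:**
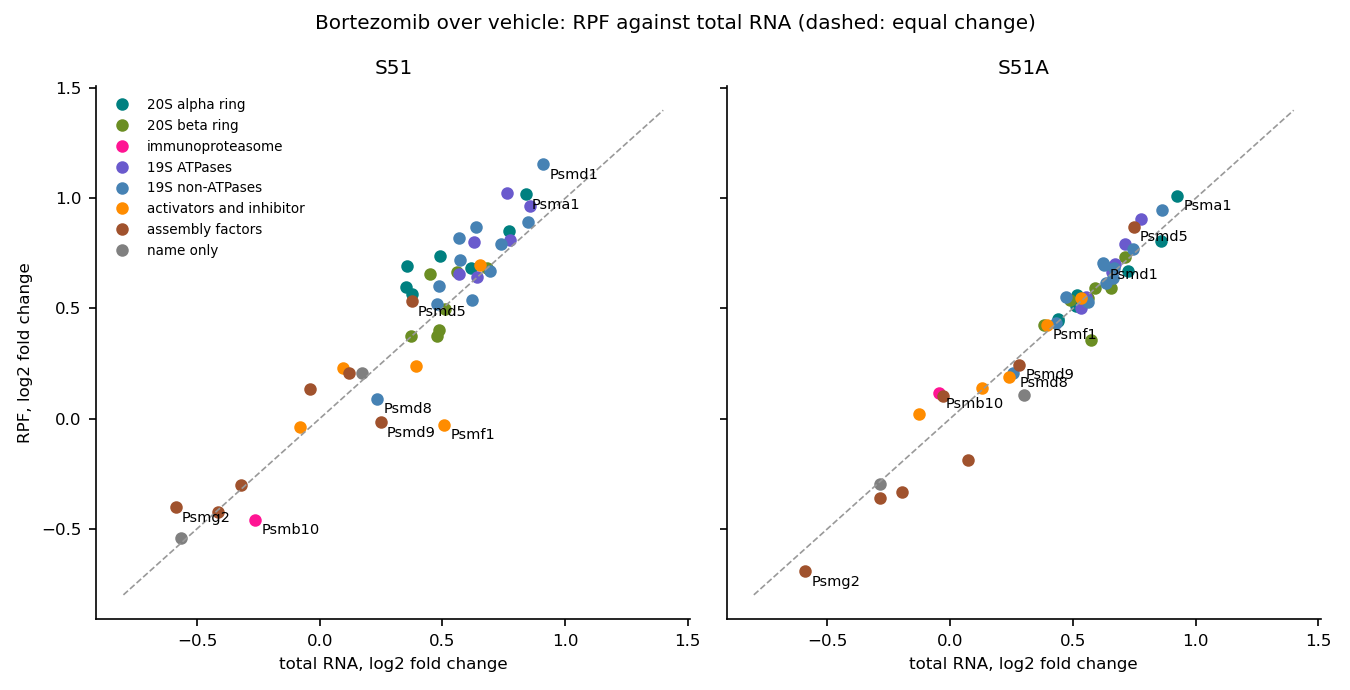
Log2 fold change of bortezomib over vehicle in RPF against that in total RNA for each of the 46 members tested in both, S51 on the left and S51A on the right. The dashed line marks equal change; the members lie along it (r = 0.929 and 0.973), and Psmf1 in S51 lies below it.

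The responses of S51 and S51A cells were compared member by member. No member was called in RPF for the difference between the S51 and the S51A response, where 2.35% of all genes were (7 members passed at an unadjusted p below 0.05, and DESeq2 called 0). In total RNA 2 members were called, against 21.6% of all genes, while the replicate block gave 8 (3 higher, 5 lower) and library sizes alone 9 (1 higher, 8 lower). Psmd1 rose more in S51, from 236, 240, 233 and 247 CPM to 423, 456, 470 and 447 CPM, than in S51A, from 253, 249, 257 and 259 CPM to 386, 401, 394 and 391 CPM. The changes were 0.91 ± 0.03 and 0.63 ± 0.03, and their difference 0.28 ± 0.05 (adjusted p = 0.000137). The other was Psmd5, described with the assembly factors, and DESeq2 called 3 members.

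The levels of the subunits were compared as RPF CPM per kilobase of counted coding sequence. Beta and alpha subunits were the most densely occupied classes. The median over the class was 485 in S51 vehicle and 686 in S51 bortezomib for the beta ring. For the alpha ring it was 340 ± 95.1 (SD, n = 3) and 555 ± 18.3 (n = 4). The ATPases went from 199 to 356 and the non-ATPases from 199.7 to 323. The medians of activators and inhibitor, at 54.1 and 64.3, and of assembly factors, at 62.1 and 68.7, were below these. Psme2b, without reads, is part of the former, and Psme3 alone stood at 253 ± 58.4 and 247 ± 23.4. The median of the 3 immunoproteasome subunits was 2.70 and 1.41, but Psmb10 alone stood at 100.1 ± 29.2 and 71.2 ± 10.4, and the tissue-specific subunits had no reads. S51A cells gave similar levels, with 484 and 686 for the beta ring, 352 and 567 for the alpha ring, 212 and 352 for the ATPases and 207 and 329.9 for the non-ATPases. Subunits that are present in equal number in a finished ring were not equally occupied. Within the beta ring Psmb5 was lowest, at 305 ± 2.66 (SD, n = 3) in S51 vehicle, and Psmb3 highest, at 858 ± 21.4, a ratio of 2.81 that was 3.49 with bortezomib, while S51A cells had ratios of 2.68 with vehicle and 3.31 with bortezomib. Psma7 was the highest alpha subunit, at 750 in S51 vehicle and 1204 in S51 bortezomib, and Psmd1 the lowest non-ATPase, at 93.8 ± 31.4 and 210. How much of such a difference comes from the length of each gene's counted sequence or from sequence preferences of the assay was not tested. Since the region counted in total RNA is not given in the sources used here, levels of different genes were not compared there.

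**Figure D4:**
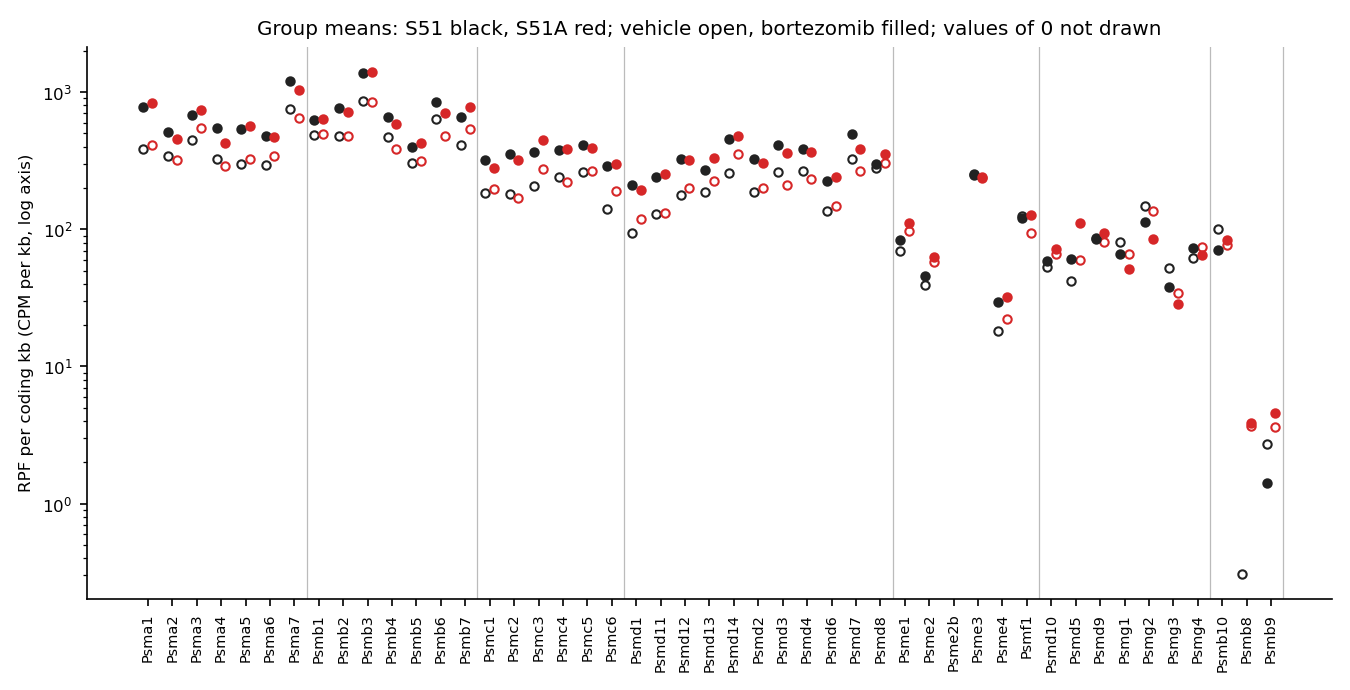
RPF CPM per kilobase of counted coding sequence for each member, by class, on a log axis, with points for the mean of each group. Members with no reads are not drawn; the beta and alpha rings lie highest, with medians of 485 and 340 in S51 vehicle, and Psmb8 and Psmb9 lie far below the other members drawn.

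No immunoproteasome subunit was called higher with bortezomib. Psmb10, the trypsin-like immune subunit, was the only one of the 3 with enough RPF reads to test. Its RPF level was 59.5, 101.5 and 67.7 CPM in S51 vehicle and 62.6, 46.9, 59.4 and 48.2 CPM in S51 bortezomib, with overlap. The change was -0.46 ± 0.16 with an adjusted p of 0.0333, and without RPF S51 vehicle replicate 2 it was -0.22 with an adjusted p of 0.211. It also missed the threshold without S51 bortezomib replicate 2 (adjusted p = 0.0816) or 4 (adjusted p = 0.0979). In total RNA Psmb10 fell in S51, from 41.2, 40.7, 35.5 and 35.9 CPM to 32.9, 31.0, 30.7 and 33.1 CPM, a change of -0.26 ± 0.06 (adjusted p = 0.000649). In S51A it changed by 0.12 ± 0.14 in RPF and -0.05 ± 0.06 in total RNA, neither called. Psmb8 and Psmb9 in total RNA changed by 0.44 ± 0.38 and 0.58 ± 0.34 in S51 and by 0.30 ± 0.19 and -0.02 ± 0.28 in S51A, none called.

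Psmb8 (gene 16913, chr17:34198195-34201454), the chymotrypsin-like immune subunit, differed between the genotypes instead. Its total RNA counts were 8, 9, 10 and 3 in S51 vehicle and 9, 9, 15 and 5 in S51 bortezomib, against 51, 38, 35 and 44 in S51A vehicle and 50, 61, 41 and 41 in S51A bortezomib. Every S51A library was above every S51 library. Psmb8 RNA was 5.56-fold higher in S51A with vehicle (log2 2.47 ± 0.28, adjusted p = 3.74e-08) and 5.04-fold higher with bortezomib (2.33 ± 0.26, adjusted p = 2.42e-08). These are low levels, 1.75 to 2.87 CPM in S51A. RPF counts of Psmb8 were 2, 0 and 0 in S51 vehicle and 0 in each of the 4 S51 bortezomib libraries, against 4, 16, 10 and 10 in S51A vehicle and 12, 4, 2 and 13 in S51A bortezomib; a count of 0 allows up to 3 counts at this depth, and no RPF test was run on it. Psmb9, the immune subunit that takes the place of Psmb6, lies close by. Its total RNA counts were 13, 8, 13 and 7 in S51 vehicle and 24, 20, 20 and 13 in S51A vehicle. The difference of 0.91 ± 0.32 (adjusted p = 0.0151) was not called without S51 vehicle replicate 4 (0.72) or S51A vehicle replicate 1 (0.80). With bortezomib the counts were 9, 11, 21 and 16 in S51 against 18, 13, 16 and 24 in S51A, 0.32 ± 0.30 (adjusted p = 0.362). Psmb10 was lower in S51A vehicle by 0.29 in total RNA on the log2 scale. Immune markers summed to 3.27 to 4.04 CPM of total RNA in S51 vehicle and 5.57 to 6.51 CPM in S51A vehicle, with 2 of the 4 at 0 in each, and their part in the result was not tested.

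The tissue-specific subunits Psma8, of testis, and Psmb11, of the thymus, had no RPF read in any library. In total RNA Psma8 had 0 to 4 counts in a library and Psmb11 0 to 6. Psme2b, a copy of Psme2, had 0 counts in all 31 libraries, and since the counting kept unique matches, reads that fit both genes may be missing from Psme2.

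Among the activators, the large cap protein PA200 (Psme4) rose with the standard subunits and the PA28 genes did not do so in RPF. Psme4 was at 117, 69.1 and 111 CPM of RPF in S51 vehicle and 141, 147, 173 and 184 CPM in S51 bortezomib, and at 125, 112, 124 and 120 CPM and then 194, 162, 182 and 163 CPM in S51A, without overlap. It rose by 0.70 ± 0.14 and 0.55 ± 0.12 in RPF and by 0.65 ± 0.04 and 0.53 ± 0.04 in total RNA. Psme1 (PA28 alpha) changed by 0.24 ± 0.14 and 0.19 ± 0.12 in RPF, not called, and rose by 0.39 ± 0.06 and 0.24 ± 0.06 in total RNA, the latter not called with library sizes alone (0.12, adjusted p = 0.0675). Psme2 (PA28 beta) was called in none of these, with changes between 0.09 and 0.23. Psme3, the nuclear PA28 gamma, changed by -0.04 and 0.02 in RPF and fell by 0.13 in total RNA of S51A.

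Psme1 and Psme2, which encode the 2 partners of a single heteromeric ring, were both higher in S51A cells. RPF of Psme1 (gene 19186, chr14:55578494-55581527) was 56.7, 35.3 and 51.3 CPM in S51 vehicle and 67.8, 66.1, 70.1 and 63.9 CPM in S51A vehicle. With bortezomib it was 65.5, 55.5, 56.7 and 51.5 CPM in S51 and 71.5, 86.3, 70.2 and 77.4 CPM in S51A. All S51A libraries were above all S51 libraries of the same treatment, by 0.46 ± 0.13 and 0.42 ± 0.13, the latter at an adjusted p of 0.0648 without S51 bortezomib replicate 4 and 0.0544 without S51A bortezomib replicate 2. Psme2 RPF was 24.1, 23.7 and 28.1 CPM in S51 vehicle and 36.5, 39.3, 42.7 and 30.8 CPM in S51A vehicle, a difference of 0.53 ± 0.17, and with bortezomib the genotypes overlapped with a difference of 0.45 ± 0.16 (adjusted p = 0.0435). Leaving out 1 library ended the RPF call of Psme2 in 3 cases with vehicle and in 8 with bortezomib. In total RNA the differences were 0.52 and 0.37 for Psme1 and 0.45 and 0.49 for Psme2, all called.

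Psmf1 (gene 228769, chr2:151716062-151744199), which encodes the proteasome-binding protein PI31, was the only member called in TE. Its total RNA rose in both genotypes, from 39.0, 35.4, 37.3 and 35.4 CPM to 52.0, 52.2, 52.8 and 51.9 CPM in S51 (0.51 ± 0.05) and from 29.9, 28.7, 29.3 and 29.5 CPM to 41.0, 37.4, 39.3 and 36.8 CPM in S51A (0.39 ± 0.05). Its RPF was 67.7, 84.6 and 67.5 CPM in S51 vehicle and 62.6, 67.0, 78.7 and 73.9 CPM in S51 bortezomib, which overlap (-0.03 ± 0.12, adjusted p = 0.881). In S51A it rose from 53.3, 60.4, 53.1 and 52.5 CPM to 78.0, 77.0, 71.8 and 68.9 CPM, without overlap (0.43 ± 0.11, adjusted p = 0.0059). TE of Psmf1 fell in S51 by 0.51 on the log2 scale (SE 0.11, adjusted p = 0.00099) and changed by 0.03 ± 0.10 in S51A. TE was higher in S51A than in S51 with bortezomib by 0.48 ± 0.10 (adjusted p = 0.00212), in a comparison where 6.4% of all genes were called, and differed by -0.06 ± 0.10 with vehicle, where 0.106% were called and no member was (5 members at an unadjusted p below 0.05, and 1 by DESeq2). The difference between the responses was -0.54 ± 0.15 with an adjusted p of 0.0428, in a test that called 1.72% of all genes. That last call was lost with a term for the lysate that RPF and total RNA share (-0.55, adjusted p = 0.209), with library sizes alone (adjusted p = 0.111) and without RPF S51 vehicle replicate 2 (-0.45, adjusted p = 0.0822) and was kept in 8 of the 31 fits that left out 1 library each, while TE in S51 kept its call without replicate 2 (-0.42, adjusted p = 0.0070).

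The assembly factors did not move as a group. Their median RPF change was -0.02 in S51 and -0.19 in S51A, and their median total RNA change -0.04 and -0.03. Psmd5, Psmd9 and Psmd10 encode chaperones of the ATPase ring, and Psmg1 to Psmg4 chaperones that pair up to build the alpha ring. Psmd5 (gene 66998, chr2:34852087-34870965) rose in both genotypes. Its RPF was 49.2, 51.3 and 50.3 CPM in S51 vehicle and 72.1, 76.5, 67.0 and 76.7 CPM in S51 bortezomib, and 63.1, 72.4, 68.5 and 83.0 CPM and then 113, 148, 142 and 129 CPM in S51A. Its total RNA went from 50.1, 55.6, 50.4 and 53.6 CPM to 67.2, 70.8, 63.8 and 70.4 CPM in S51, and from 67.1, 74.5, 74.1 and 77.0 CPM to 117, 131, 122 and 122 CPM in S51A. The changes were 0.53 ± 0.12 and 0.87 ± 0.10 in RPF and 0.37 ± 0.05 and 0.75 ± 0.05 in total RNA. The total RNA response was smaller in S51 than in S51A, by -0.37 ± 0.07 (adjusted p = 0.000428), and Psmd5 was also higher in S51A with vehicle, by 0.53 ± 0.12 in RPF and 0.48 ± 0.05 in total RNA.

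Psmg2 moved the other way. Its RPF was 109.5, 83.6 and 108 CPM in S51 vehicle and 83.0, 70.8, 76.0 and 75.6 CPM in S51 bortezomib, and 92.5, 92.5, 84.7 and 99.6 CPM and then 64.4, 58.5, 54.1 and 51.5 CPM in S51A, without overlap within either genotype. It fell by 0.40 (SE 0.12) and 0.69 (SE 0.11) in RPF and by 0.59 (SE 0.05) in total RNA of each genotype, and its RPF call in S51 was lost without S51 vehicle replicate 1 (-0.34, adjusted p = 0.0575). Psmg1, which pairs with Psmg2, fell by 0.32 and 0.28 in total RNA (SE 0.05 each), and its RPF changes were -0.30 ± 0.14 (adjusted p = 0.106) and -0.36 ± 0.13 (adjusted p = 0.0493), the last lost with DESeq2, RLE scaling or no filter and in 10 of the fits that left out 1 library (adjusted p up to 0.165). Psmg3 fell in total RNA of S51 by 0.42 (SE 0.10) and changed by -0.20 ± 0.11 in S51A. Its partner Psmg4 changed by 0.12 ± 0.09 and 0.07 ± 0.09 in total RNA, not called. Psmd9 rose in total RNA by 0.25 and 0.28 (SE 0.05 each; 0.09 and not called in S51 with library sizes alone) and was not called in RPF, and Psmd10, also known as gankyrin, was not called in any response, with changes from -0.04 to 0.14.

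The genes that share only the letters gave a contrast within the list. Psmc3ip, which acts in meiotic recombination, fell in total RNA by 0.57 (SE 0.07) in S51 and 0.28 (SE 0.08) in S51A. Psme3ip1, named for binding PSME3, rose by 0.17 ± 0.06 and 0.30 ± 0.06, the former not called with library sizes alone (0.02). Neither was called in RPF for a response to bortezomib.

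Between genotypes the members went both ways, unlike the responses to bortezomib. With vehicle, 7 members were higher and 8 lower in S51A in RPF, where 14.8% of all genes were higher and 13.8% lower. With bortezomib it was 7 and 4, against 16.6% and 14.9%, a balance that turned with only the groups compared (7 and 12), with library sizes alone (3 and 10) and when any 1 of 4 libraries was left out. In total RNA 13 were higher and 21 lower with vehicle, against 31.4% and 32.4%, and 11 higher and 18 lower with bortezomib, against 33.3% and 32.4%. The medians of the 31 standard subunits were 0.05 and -0.02 in RPF and -0.07 and -0.03 in total RNA. The plot of genotype differences shows that most lay within 0.5 of 0 on the log2 scale. These comparisons share their vehicle or bortezomib libraries with the responses above.

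**Figure D5:**
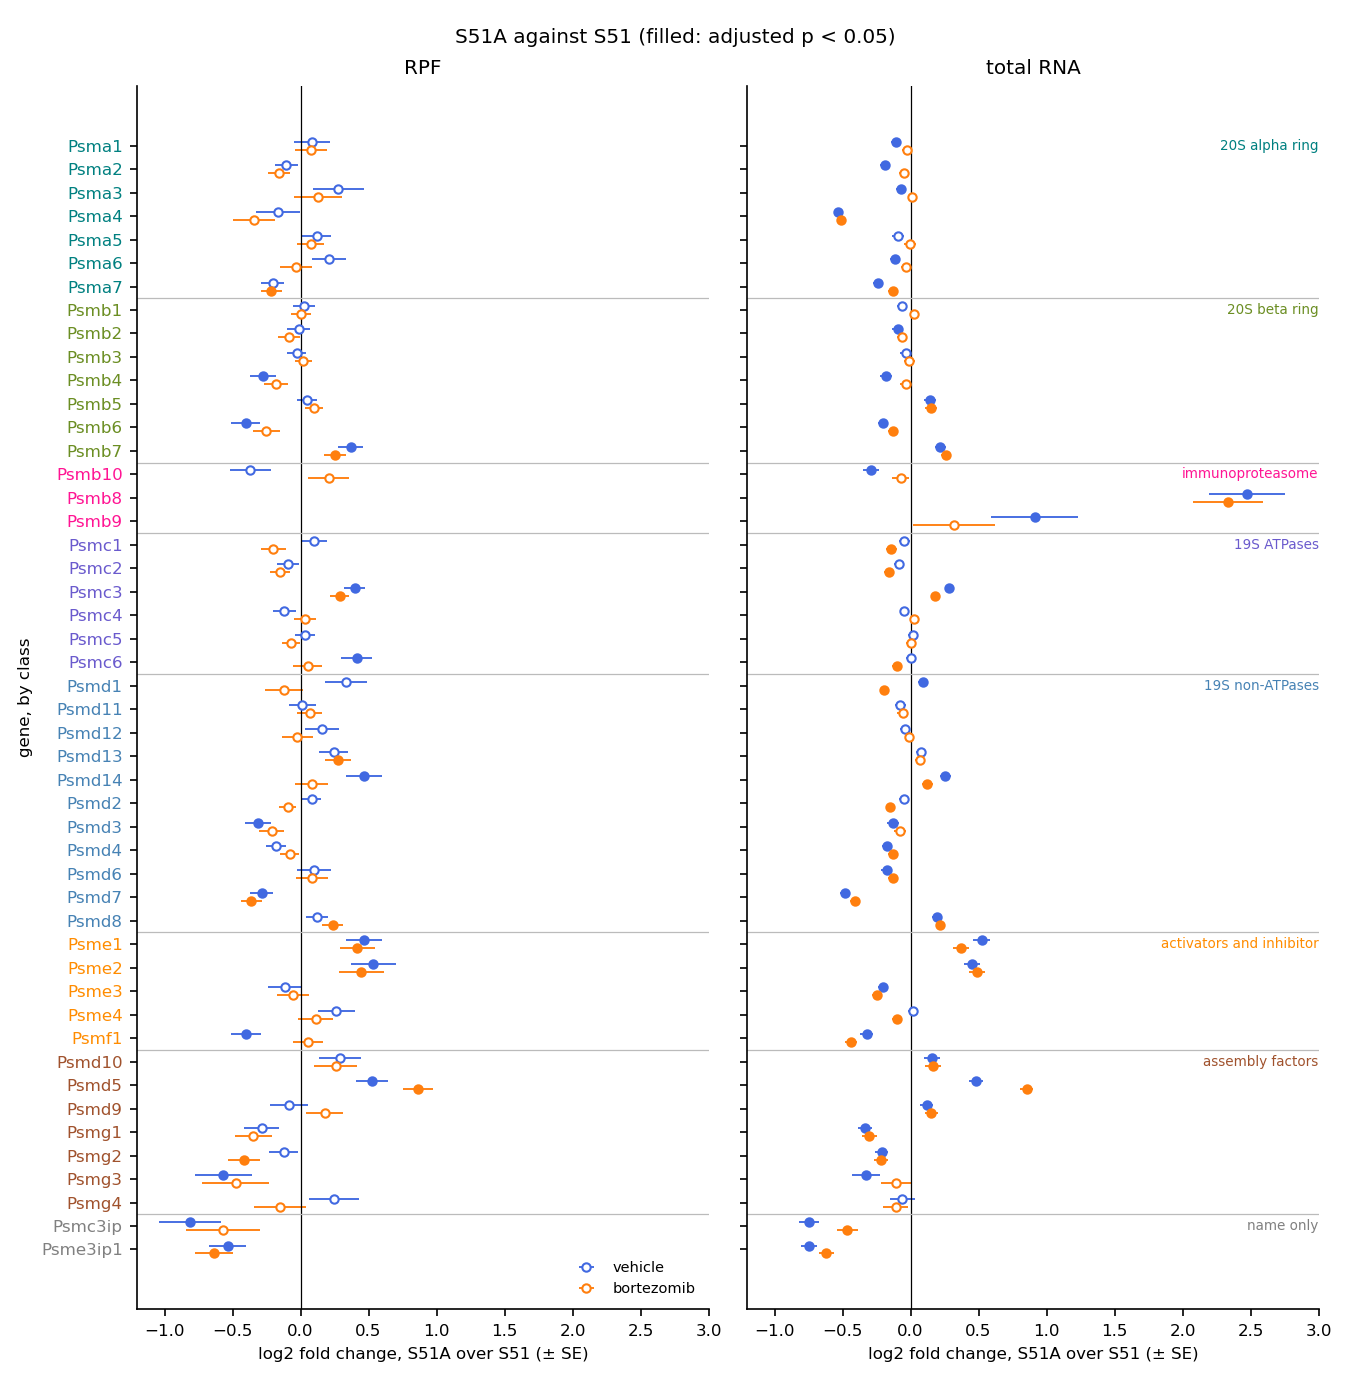
Log2 difference of S51A over S51 for each member tested, in RPF and total RNA, by class, with vehicle in blue and bortezomib in orange. Bars are ± 1 SE from edgeR and filled points passed an adjusted p of 0.05; the standard subunits lie on both sides of 0 (median 0.05 in RPF with vehicle), and Psmb8 stands at 2.47 in total RNA.

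Among standard subunits, those called in the same direction in all 4 genotype comparisons are named here after their values were seen. Psmb7 was higher in S51A by 0.37 and 0.25 in RPF and 0.22 and 0.26 in total RNA (vehicle, then bortezomib), with its RPF call under bortezomib lost when any 1 of 5 libraries was left out. Psmc3 was higher by 0.40 and 0.29 in RPF and 0.29 and 0.18 in total RNA. Psmd7 was lower, at -0.29 and -0.36 in RPF and -0.48 and -0.41 in total RNA. The largest difference of a standard subunit in total RNA was that of Psma4, at -0.53 and -0.51. Of the active subunits, RPF of Psmb6 was 376, 518 and 362 CPM in S51 vehicle and 308, 315, 334 and 308 CPM in S51A vehicle, and 549, 633, 507 and 520 CPM against 434, 484, 478 and 454 CPM with bortezomib. Within each treatment all S51A libraries were below all S51 libraries. The vehicle difference, -0.40, was called, and the bortezomib difference, -0.25, was not (adjusted p = 0.0577). RPF of Psmb7 was 327, 265 and 369 CPM against 421, 411, 414 and 415 CPM with vehicle. Outside the subunits, Psme3ip1 was lower in S51A by -0.54 and -0.64 in RPF and -0.75 and -0.62 in total RNA, and Psmg1 by -0.34 and -0.30 in total RNA.

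The counts of genotype calls in RPF depended on single libraries. With vehicle they ran from 11 without S51A vehicle replicate 3 to 20 without S51 vehicle replicate 3, and with bortezomib from 6 without S51 bortezomib replicate 4 to 19 without S51 vehicle replicate 2. In total RNA the 8 keratinocyte and SCC markers also moved with genotype: they summed to 11140 to 11725 CPM in S51 vehicle and 14109 to 14195 CPM in S51A vehicle, and to 13708 to 15994 CPM and 14654 to 16063 CPM with bortezomib, and their part in these differences was not tested.

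Proteins that work with the proteasome moved with the subunits in part. Of 15 proteasome-bound factors, 9 rose and 1 fell in RPF in S51, 7 rose in S51A, 10 rose and 1 fell in total RNA in S51, and 11 rose and 2 fell in S51A. The shares of all genes that rose were 14.8% and 9.25% in RPF and 29.7% and 27.5% in total RNA. The shares that fell were 16% and 11.4% in RPF and 30.2% and 28.9% in total RNA. In TE 0 of these factors rose and 2 fell in S51, where 9.65% of all genes were called in either direction. The difference of TE responses was called for 1 of them, against 1.72% of all genes. The ubiquitin-binding protein Zfand5 rose by 1.67 ± 0.17 and 1.28 ± 0.15 in RPF, more than any subunit. The ubiquitin receptor Adrm1 rose by 0.58 and 0.75 in RPF, the shuttle factor Ubqln1 by 0.72 and 0.64, and the thioredoxin-like cap protein Txnl1 by 0.95 and 0.71. The deubiquitinase Usp14 rose by 0.94 ± 0.20 in S51 and changed by 0.44 ± 0.18 in S51A (adjusted p = 0.0888). Pomp, the maturation factor of the core, rose by 0.29 and 0.33 in RPF. Akirin2, which carries proteasomes into the nucleus, rose in total RNA of S51 by 0.16 and fell in S51A by 0.16, and the difference between these responses, 0.32 ± 0.08, was called (adjusted p = 0.00338). The substrate shuttle Rad23b fell in TE in S51 by 0.49 (SE 0.07), and the difference between its responses, -0.55 ± 0.09, was called in TE (adjusted p = 0.000618).

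Of the 5 genes of the NRF1 and NRF2 axis, 2 rose in RPF in S51 and 1 in S51A, where 14.8% and 9.25% of all genes did. In total RNA 3 rose and 1 fell in S51, against 29.7% and 30.2% of all genes. In S51A 2 rose and 1 fell, against 27.5% and 28.9%. With bortezomib all 5 were lower in total RNA of S51A than of S51 (median -0.34), where 32.4% of all genes were. With vehicle 3 were lower and 1 higher, against 32.4% and 31.4%. The counts of so short a list say little. Vcp, the ATPase that extracts NRF1 from the membrane, rose by 1.06 ± 0.09 and 0.72 ± 0.08 in RPF and by 0.99 and 0.74 in total RNA. Nfe2l1 itself changed by 0.06 ± 0.11 and 0.02 ± 0.10 in RPF, not called. Nfe2l2 rose in S51 by 0.83 ± 0.11 in RPF and 0.23 in total RNA, with a TE change of 0.60 ± 0.11 (adjusted p = 0.000189), and its RPF change in S51A, 0.28 ± 0.10, was not called (adjusted p = 0.0534). The difference between the 2 TE responses of Nfe2l2 was 0.50 ± 0.15 and missed the threshold (adjusted p = 0.0916). Ngly1, which strips sugars from NRF1, fell by 0.43 and 0.66 in total RNA.

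Of 10 antigen-processing genes tested, 2 rose in RPF in S51 and 3 in S51A, and 4 in total RNA in each, with none lower. With 14.8% and 9.25% of all genes higher in RPF and 29.7% and 27.5% in total RNA, the total RNA counts that rose were near the background. The shares of all genes that were lower were 16% and 11.4% in RPF and 30.2% and 28.9% in total RNA. Tap1, the peptide transporter gene that lies beside Psmb9, rose by 1.26 ± 0.21 and 1.22 ± 0.20 in RPF and by 1.30 and 1.32 in total RNA, while Psmb9 was not called. With vehicle, 4 of the 10 were higher in total RNA of S51A (H2-K1, Tapbp, B2m and H2-D1, from 0.46 to 1.07) and 3 were lower, near the 31.4% and 32.4% of all genes.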

How the data were processed

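RPF and total RNA were measured in the same 4 groups of SCC cells, in 15 and 16 libraries. Per the study's methods and the labels, reads were trimmed, aligned to mm10 with bowtie2 and assigned to genes, RPFs in coding sequence only, without the first 15 and last 5 codons, and the column names record removal of ribosomal reads, marking of duplicates, masking of repeats and a filter for unique mapping. The authors deposited these values as raw counts per Entrez gene identifier, of which 20682 (RPF) and 24564 (total RNA) matched a symbol. Columns follow the series note on exchanged titles: a column number that was once part of a title stays with its sample.

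From the counts, edgeR 4.0.16 (R 4.3.3, limma 3.58.1) fitted quasi-likelihood models per kind of library with TMM scaling, filterByExpr and a coefficient for each of the 4 groups. TE came from 1 model over 31 libraries with an interaction of kind and group, over genes that passed in both kinds. Adjusted p-values are Benjamini-Hochberg over all genes tested, and an error given as ± or SE beside a fold change is the log2 fold change over the square root of F. CPM are TMM-scaled. Levels per kilobase divide RPF CPM by the median coding length of a gene less 60 nucleotides. The alternatives were DESeq2 1.42.0, other scalings, no filter, the compared groups alone, a 1.5-fold limit, a replicate block, a lysate block (TE) and leaving out each library in turn. The fits were tested on simulated data. No pair of replicates agreed within sampling noise (chi-square per gene at least 1.66 in RPF and 2.78 in total RNA).

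The members and gene lists were chosen with earlier results of these data known. Named with values were Psmb5, Psmb6 and Psmb7, every immunoproteasome gene, activator, inhibitor and assembly factor, the 2 highest and 2 lowest total RNA responses in each other class, members called in TE or in the difference of responses, and the listed pathway genes; Psma2, Psma4, Psmc6, Psmd7 and Psmd12 were named after their values were seen.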

Additional observations from a re-analysis of the deposited data

Results flagged for a closer look

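Of 139 groups of 4 libraries tested for a single library far from the rest, 8 were flagged, and chance flags about 1 in 20. Replicate 2 of S51A bortezomib was the highest of its group in total RNA for Psmb5 (56.1 CPM against 52.4 to 52.9), Psme1 (51.3 against 45.5 to 45.8) and the sum of the 19S non-ATPases (3460 against 3264 to 3292). In RPF, Psmd1 was highest in S51A bortezomib replicate 1 (633 CPM against 506 to 521), Psmd8 in S51 bortezomib replicate 1 (334 against 284 to 291) and Psmf1 in S51A vehicle replicate 2 (60.4 against 52.5 to 53.3). Total RNA of Psmb8 was lowest in S51 vehicle replicate 4 (0.126 CPM, 3 counts, against 0.403 to 0.459), and the summed 20S beta ring in S51 vehicle replicate 1 (927 against 968 to 971).

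The response to bortezomib differed between S51 and S51A in total RNA of Psmd1 by 0.28 and of Psmd5 by -0.37, and in TE of Psmf1 by -0.54, each by a test of the difference itself. The Psmf1 call was lost with a lysate block (adjusted p = 0.209), with library sizes alone (0.111), without the low-count filter (0.0637) and in 23 of 31 fits that left out 1 library.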

How the results depend on the processing

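The counts of members called for a response to bortezomib stayed within 1.5 times of 34 and 34 (RPF) and 42 and 41 (total RNA) under every alternative run but the 1.5-fold limit, which left 19 in RPF of S51A, 17 in total RNA of S51 and 19 in total RNA of S51A. Leaving out each library in turn gave 33 to 35 and 33 to 36 in RPF and 42 to 43 and 41 to 43 in total RNA. Genotype counts moved more. The 1.5-fold limit left 1 and 2 in RPF (vehicle, bortezomib) and 4 and 3 in total RNA, the last 2 higher and 1 lower against 11 and 18. With only the groups compared, RPF gave 9 with vehicle and 19 with bortezomib (7 higher, 12 lower, against 7 and 4). With library sizes alone, RPF with bortezomib gave 13 (3 higher, 10 lower) and total RNA 27 (14 higher, 13 lower). Leaving out libraries gave 11 to 20 in RPF with vehicle, with more higher than lower without S51 vehicle replicate 3 (20), S51A vehicle replicate 3 (11) or replicate 4 (13), and 6 to 19 with bortezomib, with more lower than higher without S51 vehicle replicate 2 (19) or 3 (14) or S51 bortezomib replicate 3 (9) or 4 (6). In total RNA it gave 30 to 36 and 27 to 29. For the difference between responses it gave 0 to 0 in RPF and 2 to 4 in total RNA, where the 1.5-fold limit left 0, library sizes alone gave 9 (1 higher, 8 lower) and the replicate block 8 (3 higher, 5 lower). The replicate block also ended the RPF call of Psmb10 in S51 (adjusted p = 0.0706).

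TE counts with each library left out were 1 to 8 in S51, 0 to 0 in S51A, 0 to 7 and 1 to 3 between genotypes (vehicle, bortezomib) and 0 to 1 for the difference of responses. Without RPF S51 vehicle replicate 3 they were 8 in S51 (7 higher, 1 lower) and 7 between vehicle groups. Library sizes alone gave 14 in S51 (13 higher, 1 lower); that scaling moved the median of all genes by 0.15 in TE of S51 and by -0.16 and -0.13 in total RNA of S51 and S51A. The 1.5-fold limit left 0 in S51, 0 between genotypes with bortezomib and 0 for the difference of responses, and library sizes alone, no low-count filter and the lysate block also gave 0 for that difference. DESeq2 called 1 in S51A and 1 between vehicle groups. The cause was not tested. The difference of Psmf1 TE responses had adjusted p = 0.0116 by DESeq2, 0.0425 with RLE, 0.0390 with the replicate block, 0.111 with library sizes alone, 0.0637 without the filter and 0.209 with the lysate block.

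Of class medians recomputed under alternatives, 2134 moved by less than their spread and 41 by more. Another 1 changed sign where its main value and its move both exceeded the spread, and sign changes of medians nearer 0 were not counted apart. In that case the assembly factors in total RNA between vehicle groups were at -0.06. Their range was -0.14 to 0.012 when 1 library was left out (0.012 without total RNA S51 vehicle replicate 2). With the longest coding sequence, levels per kilobase were 532 and 510 for the alpha ring with bortezomib (S51, S51A), 64.5 and 79.8 for activators and inhibitor in S51A (vehicle, bortezomib), and 52.8, 59.1, 58.6 and 61.1 for assembly factors in S51 vehicle, S51 bortezomib, S51A vehicle and S51A bortezomib. Replicate numbers were not taken as pairs in the main fits. Same-numbered libraries of different groups correlated from -0.166 to 0.269 in RPF (3 of 21 above 0.1) and from 0.019 to 0.321 in total RNA (19 of 24). Among different-numbered libraries, 7 of 63 pairs in RPF and 3 of 72 in total RNA were above 0.1. RPF and total RNA of the same group were above 0.1 in 9 of 15 same-numbered and 3 of 45 different-numbered pairs. Same-numbered total RNA libraries, and the RPF and total RNA of 1 lysate, thus tended to deviate together. The main fits ignore this, and the replicate and lysate blocks take it up. The RPF depth did not allow Psmb8 and Psmb9 to be tested.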
